A study of Mus musculus with 50 samples.

Results

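The libraries described here are 50 mouse liver RNA-seq libraries that the labels call male. They were grouped by their measured values of Mup12 (ENSMUSG00000094793), a major urinary protein gene on chromosome 4. A library was called low when its log2(value + 0.5) of Mup12 lay below the midpoint between the lowest and the highest of the 50 libraries, and high otherwise, which gave 26 low and 24 high Mup12 libraries. The mice came from a cross in which F1 animals of a C57BL/6J strain carrying the A/J chromosome 4 were mated to F1 animals of a C57BL/6J strain carrying the A/J chromosome 6. Each offspring thus received a C57BL/6J copy of both chromosomes, and 1 further copy of each that can mix C57BL/6J and A/J stretches, on a C57BL/6J background. The paper reports traits for both sexes and ran its expression scans with and without sex as a covariate. It does not state the sex of the mice sequenced, so that male rests on the labels. The paper describes the offspring as N2 mice of 5 weeks and gives 49 animals for the liver transcriptomes. The deposited labels instead call them adult F2 males and name 50 libraries. All libraries share this description, no treatment differed between them, and genotypes were not used, so that low and high refer to the measured Mup12 values and not to a known allele. The table held values for 12185 genes, and 11436 of them had a mean of 1 or more. Between 11965594 and 29976557 reads per library were counted.

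Major urinary proteins are small lipocalins that carry volatile pheromones in a hydrophobic pocket. In mice they are made mainly by the liver, most strongly in adult males under the control of androgen and of pulsatile growth hormone, secreted into the blood and excreted in the urine. Their genes form a large tandem array on chromosome 4 in which central members are nearly identical, while Mup3, Mup20 (darcin, a male pheromone that attracts females) and Mup21 are more distant relatives.

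The near identity of the central genes bears on every Mup value below, and the start of the coding sequence of Mup12 is shown beside those of 4 other members for that reason. Each line gives the first 90 coding bases from the GENCODE M21 transcripts of GRCm38, all on the minus strand. Capitals in the Mup12 line mark the bases at which Mup15 differs, and capitals in the other lines mark bases that differ from Mup12.
Mup12, chr4:60741126-60741215: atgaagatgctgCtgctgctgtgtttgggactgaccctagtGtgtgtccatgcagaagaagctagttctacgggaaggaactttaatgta
Mup15, chr4:61439543-61439632: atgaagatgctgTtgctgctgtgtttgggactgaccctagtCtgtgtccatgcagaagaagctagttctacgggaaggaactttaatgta
Mup9, chr4:60421797-60421886: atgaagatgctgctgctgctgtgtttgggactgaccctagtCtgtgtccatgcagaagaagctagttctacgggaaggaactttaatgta
Mup7, chr4:60070211-60070300: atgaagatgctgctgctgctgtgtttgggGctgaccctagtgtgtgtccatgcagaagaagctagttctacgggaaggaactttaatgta
Mup17, chr4:61595671-61595760: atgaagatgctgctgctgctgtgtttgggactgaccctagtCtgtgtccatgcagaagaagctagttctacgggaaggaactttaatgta

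Over the 540 coding bases, Mup12 differed from Mup15 at 3 positions, namely C13T, G42C and G91C, counted from the first coding base with the Mup12 base first. It differed from Mup9 at 3 positions, from Mup7 at 4 and from Mup17 at 7. Of the 896 stretches of 31 bases in the Mup12 transcript, 71 occurred in no other annotated Mup transcript, 698 were shared with Mup15, 674 with Mup9, 667 with Mup7, 75 with Mup20 and 20 with Mup3. Mup15 had 895 such stretches and 0 of its own. How the authors' counting treated reads that match several genes is not given in the sources used here, so the value of each central Mup gene is uncertain as a measure of that gene alone.

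Upstream sequences were compared in the same way. The RefSeq table of 300-base promoter windows (250 bases before to 50 after the start, GRCm38.p6) was matched by symbol for 17 Mup genes, Mup9 and Mup15 among them and Mup12 not. Both are given below because Mup9 followed Mup12 across all 50 libraries (Pearson's r 0.94) and Mup15 less so (0.48), although within each of the 2 runs of libraries described further on both followed it (Mup15 0.947 and 0.930, Mup9 0.935 and 0.900, n = 25 each). Capitals mark the letters TATATAA.
Mup9, chr4:60421903-60422202, minus strand: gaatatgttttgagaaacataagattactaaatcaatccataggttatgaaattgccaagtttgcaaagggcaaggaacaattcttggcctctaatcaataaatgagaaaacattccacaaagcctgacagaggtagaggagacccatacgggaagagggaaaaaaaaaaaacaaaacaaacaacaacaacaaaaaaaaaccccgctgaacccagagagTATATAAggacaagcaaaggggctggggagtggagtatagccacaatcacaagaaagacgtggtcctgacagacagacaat
Mup15, chr4:61439655-61439954, minus strand: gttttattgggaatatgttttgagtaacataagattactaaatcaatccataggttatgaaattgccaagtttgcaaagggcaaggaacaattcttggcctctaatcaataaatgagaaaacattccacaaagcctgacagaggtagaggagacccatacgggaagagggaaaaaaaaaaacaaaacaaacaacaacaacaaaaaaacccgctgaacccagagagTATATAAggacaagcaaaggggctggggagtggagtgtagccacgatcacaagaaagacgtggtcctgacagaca

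In a global alignment 290 bases of the Mup15 window were paired with Mup9 bases, and 287 of them were identical. TATATAA, searched on both strands, was present in 13 of the 17 Mup windows of the table and in 3.24% of all 32851 promoter windows. A match of these letters is a description of the sequence only.

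The values that made the groups are given as a description, with no test. Mup12 was a normalized signal, on a scale close to that of counts per 1e6 reads. In low Mup12 libraries its lowest, median and highest values were 1.01, 20.8 and 59.1, and in high Mup12 libraries they were 65.3, 962 and 2450.2. The lowest value rested on 15 reads. The midpoint corresponded to a value of 60.4, and the libraries nearest to it had 58.4 and 59.1 on the low side and 65.3 and 73.9 on the high side. The midpoint did not fall in a gap of the distribution. The widest gap in the middle of the ordered values lay higher, between 79.1 and 164, and would have placed 29 libraries below it and 21 above.

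Compared with Mup7, the libraries separated into 2 parallel runs. The difference of log2 Mup12 minus log2 Mup7 lay between -7.17 and -4.45 in 25 libraries and between -1.39 and -0.55 in the other 25, and no library fell between these ranges. Within each run, Mup12 and Mup7 rose together, with Pearson's r of 0.977 in the 25 libraries of low Mup12 relative to Mup7 and 0.996 in the other 25 (Spearman's rho 0.99 in both). These coefficients are descriptions, across libraries in which the genes also share sequence. Because the runs were themselves set by the difference between Mup12 and Mup7, a close relation within them follows in large part from the division.

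**Figure D1:**
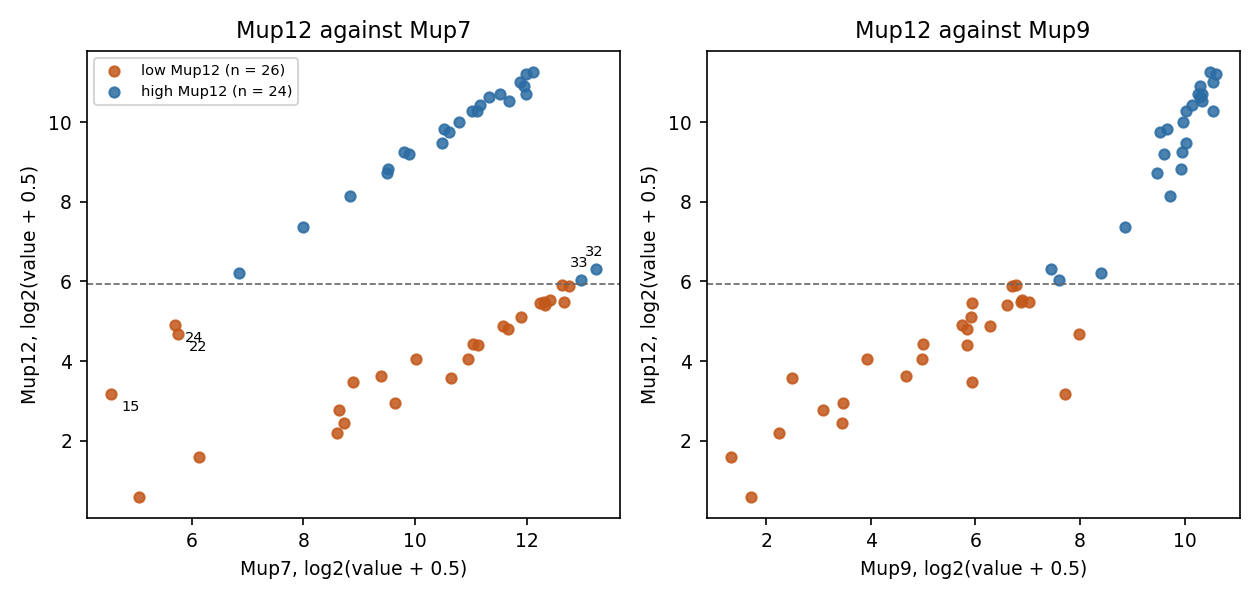
Mup12 against Mup7 (left) and Mup9 (right), each point a library, on the log2(value + 0.5) scale, with the dashed line at the midpoint that divided 26 low from 24 high Mup12 libraries. Against Mup7 the points form 2 parallel runs, and the numbered libraries 15, 22, 24, 32 and 33 lie on the other run from the rest of their group.

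The grouping by Mup12 level and the place in a run agreed in 45 of 50 libraries. Libraries 15, 22 and 24 were low in Mup12 but lay on the run of high Mup12 relative to Mup7, with Mup12 values of 8.47, 24.9 and 29.4 and Mup7 values of 22.99, 53.6 and 51.5. Libraries 32 and 33 were high in Mup12 but lay on the other run, with Mup12 values of 79.1 and 65.3 beside the highest Mup7 values of the high Mup12 libraries, 9630.2 and 7980.9. These 5 libraries enter the comparisons below as the rule placed them, and results are also given without them or with the groups taken from the runs, both of which are alternatives chosen after the values were seen.

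The other genes named as markers did not follow Mup12 equally. Mup9 had lowest, median and highest values of 2.002, 56.6 and 253.9 in low and 173, 1022 and 1543 in high Mup12 libraries. Its groups overlapped only between 173 and 253.9, and its mean log2 difference, low minus high, was -4.58. For Mup15 the corresponding values were 0.569, 53.0 and 580.3 in low and 1.02, 93.9 and 664 in high Mup12 libraries. The Mup15 groups overlapped over nearly their whole ranges, and its mean log2 difference was -1.32. Between the runs it had the other sign, with a mean log2 difference of 0.49. In that respect the values go against reading the groups as a single state of the whole Mup array, and the groups are called low and high Mup12 throughout.

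Among 48 Mup genes and pseudogenes annotated on chromosome 4, over a span of chr4:59956804-62150863, 25 were in the table and 22 had a mean of 1 or more. Mup-ps4, Mup-ps7 and Mup-ps8 fell below that mean. Since the groups were made from these reads, the Mup genes were set apart and described without a test. Of the 22, 19 had a lower and 3 a higher mean log2 value in low Mup12 libraries, and between the runs 6 were lower and 16 higher on the run of low Mup12 relative to Mup7. In 24 of the 25 Mup genes the low and high Mup12 groups overlapped, and the exception was Mup12, whose separation is the rule itself.

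Besides Mup9, the genes with the widest differences were Mup17 and Mup2. Mup17 had values of 85.9, 376 and 1206 (lowest, median, highest) in low and 454, 1585 and 2801 in high Mup12 libraries, a mean log2 difference of -1.93, and -1.45 between the runs. Mup2 had values of 2.77, 9.29 and 68.4 in low and 6.87, 34.8 and 72.6 in high Mup12 libraries, with mean log2 differences of -1.87 and, between the runs, -1.38. Both genes overlapped between the groups and kept their sign under both ways of dividing the libraries.

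Mup20 had the opposite sign. Its values were 120.6, 866 and 2898 in low and 202, 532 and 2219.7 in high Mup12 libraries, with a mean log2 difference of 0.66, and of 1.28 between the runs. The pseudogenes Mup-ps19 (0.42, and 0.88 between the runs) and Mup-ps13 (0.27 and 0.99) had the same sign. Mup3, which had the highest mean of the Mup genes, had 1340.5, 5068 and 8713 in low and 2541, 4764 and 7766 in high Mup12 libraries, and a mean log2 difference of -0.18, and of 0.34 between the runs.

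Like Mup3 and Mup15, the remaining genes other than Mup10 and Mup21 changed sign with the division. Mup1, Mup6, Mup7, Mup8, Mup11, Mup13, Mup14, Mup16, Mup18, Mup19 and Mup22 were lower in low Mup12 libraries, by mean log2 differences from -0.92 (Mup19) to -0.25 (Mup22), and were higher on the run of low Mup12 relative to Mup7, by 0.01 (Mup13) to 1.14 (Mup14). Mup10 (-0.63, and -0.24 between the runs) and Mup21 (-0.98 and -0.38) were lower under both. The summed value of all Mup genes was 11094 ± 6652 (SD, n = 26) in low and 14303 ± 5984 (SD, n = 24) in high Mup12 libraries, and between the runs it was 13344 ± 7127 (SD, n = 25) and 11924 ± 5824 (SD, n = 25). The Mup genes took between 0.222% and 2.63% of all values in a library.

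**Figure D2:**
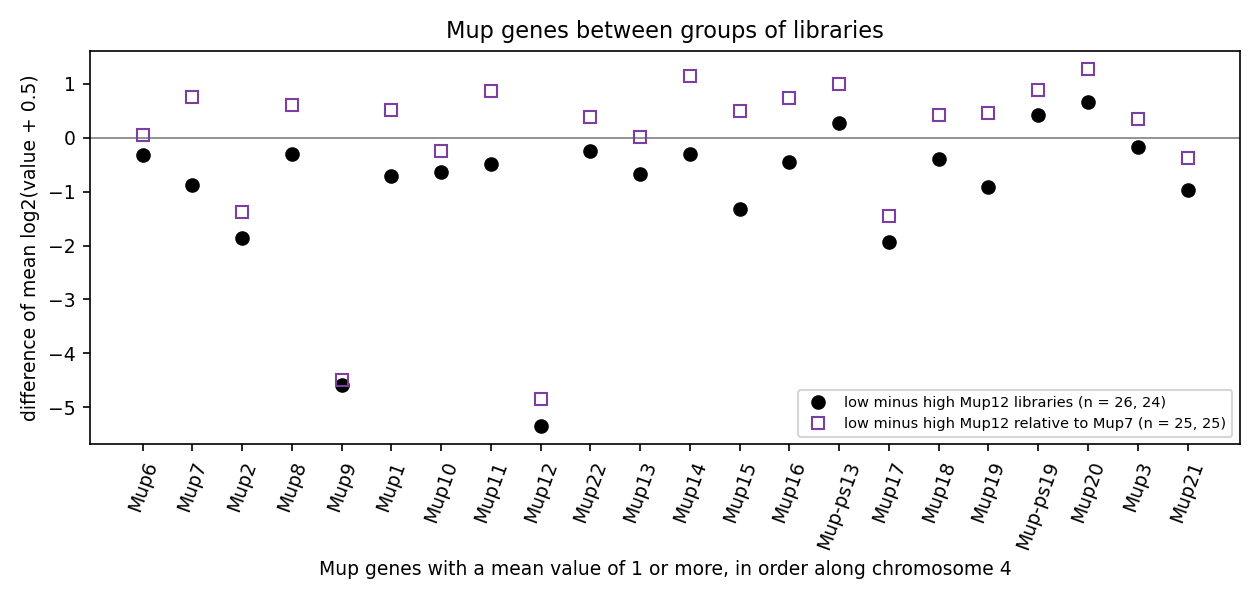
Difference of mean log2(value + 0.5) for the 22 Mup genes with a mean of 1 or more, in their order along chromosome 4, for low minus high Mup12 libraries (filled circles, 26 and 24 libraries) and between the runs of low and high Mup12 relative to Mup7 (open squares, 25 libraries each). Mup9 and Mup12 lie below -4 under both, and Mup20 lies above 0 under both.

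The Mup levels were also compared with other sex-dependent genes of the liver. A score was taken as the mean standardized value of 21 male-biased genes minus that of 14 female-biased genes, with no gene of chromosomes 4 or 6 and no Mup gene in it. It was -0.25 ± 1.45 (SD, n = 26) in low and 0.27 ± 0.90 (SD, n = 24) in high Mup12 libraries. Between the runs it had the other sign, with 0.166 ± 1.21 (SD, n = 25) on the run of low Mup12 relative to Mup7 and -0.166 ± 1.26 (SD, n = 25) on the other. Within the runs, Mup12 and the score had Pearson's r of 0.92 (rho 0.90, n = 25) on the run of low Mup12 relative to Mup7 and 0.88 (rho 0.87, n = 25) on the other, as descriptions. Libraries 15, 22 and 24 had scores of -2.52, -1.57 and -3.69, and libraries 32 and 33 had 1.52 and 1.401. With the score added as a covariate to the comparison below, 9 genes were called, the 8 called without it and Ccdc171.

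All genes with a mean of 1 or more were then compared between low and high Mup12 libraries, to ask which genes outside the Mup array differed with the Mup12 grouping, near the array, along chromosome 4 and elsewhere. Of 11414 genes outside the Mup genes, 8 passed an adjusted p of 0.05 (0.0701%) by limma with Benjamini-Hochberg adjustment. Of these, 6 were among the 707 genes of chromosome 4 (0.849%), 0 were among the 575 genes of chromosome 6 (0%), and 2 were among the 10132 genes of the other chromosomes (0.0197%). On chromosome 6, 35 of 575 genes had an unadjusted p under 0.05 by limma, beside 84 of 707 on chromosome 4 and 699 of all 11414. On chromosome 6 edgeR and DESeq2 also called 0 genes. All 6 genes of chromosome 4 were lower in low Mup12 libraries. Every library was a separate library of liver tissue, but 2 animal numbers stand on 2 libraries each, libraries 8 (high) and 10 (low), and libraries 22 (low) and 55 (high), so that the same number occurs on both sides of the comparison. In bulk tissue fewer cells of a type and less RNA per cell cannot be told apart.

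Alad encodes delta-aminolevulinate dehydratase, an enzyme of heme synthesis, and lies at chr4:62509169-62519918, 0.358 Mb from the Mup span. Its lowest, median and highest values were 44.9, 56.8 and 95.3 in low and 56.1, 95.6 and 113 in high Mup12 libraries. No low library exceeded the median of the high libraries, and 1 high library lay below the median of the low ones. The groups nevertheless overlapped, since 14 low libraries lay at or above the lowest high library, number 33. Alad was 1.59-fold higher in high Mup12 libraries on the log2(value + 0.5) scale (low minus high -0.67, SE 0.07, limma adjusted p = 7.38e-10).

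Its neighbour Hdhd3, a gene of the haloacid dehalogenase-like hydrolase family, lies at chr4:62499008-62503467 with 5701 bases between the annotated genes. Its values were 6.28, 9.69 and 14.8 in low and 6.75, 17.04 and 22.1 in high Mup12 libraries. Again no low library exceeded the high median, and 2 high libraries lay below the low median. Hdhd3 was 1.70-fold higher in high Mup12 libraries (-0.77, SE 0.10, limma adjusted p = 2.03e-07).

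For both genes the lowest 2 high Mup12 libraries were those that the place in a run set apart. Libraries 32 and 33, high in Mup12, had Alad values of 57.7 and 56.1 and Hdhd3 values of 7.32 and 6.75. Libraries 15, 22 and 24, low in Mup12, had Alad values of 76.2, 60.3 and 56.2 and Hdhd3 values of 10.4, 7.70 and 9.91. For Hdhd3 all 3 lay within the range of the other low libraries, and for Alad library 15 lay above all low libraries but number 44. Without the 5 libraries, Hdhd3 ran from 6.28 to 14.8 in 23 low and from 12.9 to 22.1 in 22 high Mup12 libraries, with 2 low libraries reaching the high range. Alad then ran from 44.9 to 95.3 and from 69.0 to 113, and 1 low library, number 44, reached the high range with 95.3 while its Hdhd3 value was 12.2. Because of that library 10 high libraries still lay at or below the highest low value of Alad. The differences without the 5 libraries were -0.76 (SE 0.06, limma adjusted p = 3.89e-13) for Alad and -0.87 (SE 0.07, adjusted p = 2.99e-12) for Hdhd3.

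The genes between the array and Hdhd3 did not pass the test. The 4 nearest tested genes before the span were Snx30 (0.06), Inip (0.04), E130308A19Rik (0.01) and Hsdl2 (0.01), with the log2 difference of each in parentheses. The 4 nearest after it were Slc31a2 (0.11), Fkbp15 (-0.06), Slc31a1 (-0.04) and Cdc26 (0.09), and Slc31a1 encodes the main copper importer. Their adjusted p by limma ran from 0.804 for Slc31a2 and Cdc26 to 0.996 for E130308A19Rik and Hsdl2. Slc31a1 had values of 98.9, 132 and 147 in low and 113, 134 and 153 in high Mup12 libraries, so that the groups overlapped.

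Gm12909, an annotated gene of the plus strand at chr4:62088288-62090524, lies inside the Mup span, 945 bases from Mup3 on the minus strand. It shared no stretch of 31 bases with a Mup transcript and was therefore tested. Its values were 0.853, 3.79 and 7.19 in low and 3.08, 5.40 and 12.1 in high Mup12 libraries, and the groups overlapped between 3.08 and 7.19. Gm12909 was 1.597-fold higher in high Mup12 libraries (-0.68, SE 0.14, limma adjusted p = 0.0159). Between the runs its difference was -0.31 with an adjusted p of 0.597, and without the 5 libraries it was -0.55 with an adjusted p of 0.0118.

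The other called genes of chromosome 4 lay farther away. Enho, which encodes the secreted peptide adropin, had values of 14.01, 22.3 and 31.5 in low and 19.2, 30.6 and 44.2 in high Mup12 libraries, 18.3 Mb before the span. It was 1.36-fold higher in high Mup12 libraries (-0.45, SE 0.09, limma adjusted p = 0.0103). Dnaic1, a dynein intermediate chain of motile cilia, is annotated on the opposite strand and overlaps Enho by 15 bases. The libraries were made with a stranded kit, but whether the counting used strand is not given in the sources used here, and the values of this pair are uncertain to that extent. The values of Dnaic1 were 0.0520, 0.537 and 2.25 in low and 0.291, 1.41 and 2.61 in high Mup12 libraries (1.66-fold, -0.73, SE 0.16, limma adjusted p = 0.0253), with a median of 11.5 reads per library. At values this close to the pseudocount of 0.5 the size of the difference depends on it, and for Dnaic1 it was -1.13 with pseudocount 0.1 and -1.06 with edgeR. The call of Dnaic1 ended under several alternatives, among them edgeR, with an adjusted p of 0.0708.

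Acot11, an acyl-CoA thioesterase, lies 44.6 Mb after the span. Its values were 0.877, 2.07 and 4.17 in low and 0.904, 4.71 and 7.95 in high Mup12 libraries. No low library exceeded the high median, whereas 4 high libraries lay below the low median. Acot11 was 1.76-fold higher in high Mup12 libraries (-0.81, SE 0.16, limma adjusted p = 0.00961), and between the runs its difference was -0.69 with an adjusted p of 0.0810.

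By distance from the span, 3 of 49 tested genes were called within 10 Mb (6.12%), 2 of 132 from 10 to 30 Mb (1.52%), 1 of 210 from 30 to 60 Mb (0.476%) and 0 of 316 beyond 60 Mb. The median size of the log2 difference was 0.05 within 10 Mb, 0.05 from 10 to 30 Mb, 0.04 from 30 to 60 Mb and 0.04 beyond, beside 0.04 over the other chromosomes. The 90th percentile of the size was 0.19, 0.22, 0.18 and 0.15 in the same order, beside 0.13 over the other chromosomes. The middle of the distribution on chromosome 4 thus lay close to that elsewhere, while its 90th percentile was higher, most so within 30 Mb. On chromosome 6 the 90th percentile was 0.15. Among the named chromosome 4 genes outside the Mup genes, the largest differences lay farther from the span. They belonged to Cyp4a32 (-1.46, 53.5 Mb after it) and Extl1 (-1.14, 72.2 Mb after it).

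**Figure D3:**
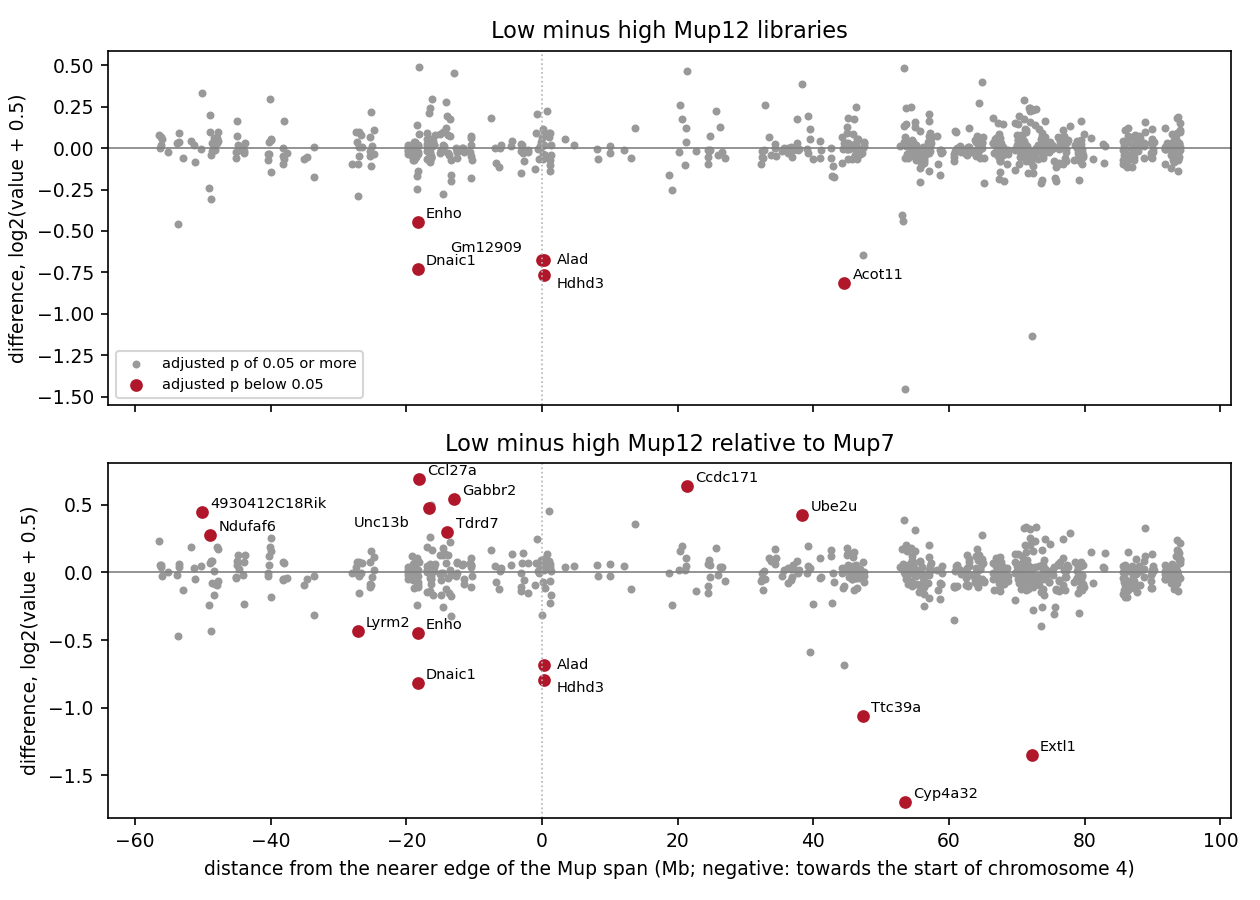
Difference in log2(value + 0.5) of each tested gene of chromosome 4 outside the Mup genes against its distance in Mb from the nearer edge of the Mup span, for low minus high Mup12 libraries (top) and between the runs of low and high Mup12 relative to Mup7 (bottom). The 6 called genes of the top panel all lie below 0, and the 16 of the bottom panel lie on both sides of 0.

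The remaining chromosome 4 genes with the smallest p did not pass by limma without a covariate between the groups of all 50 libraries. Between the same groups, DESeq2 called Cyp4a32 and Ccdc171. Limma called Cyp4a32 and Trmt10b with library set as covariate, and Ccdc171 with the score of sex-dependent genes as covariate. Without the 4 libraries nearest the midpoint it called Cyp4a32 and Ccdc171. Cyp4a32 was also called in libraries 1 to 30 and without the second library of doubled animal numbers. Cyp4a32, a fatty acid omega-hydroxylase of the Cyp4a cluster, had values of 35.9, 68.8 and 639 in low and 33.9, 389.7 and 551 in high Mup12 libraries, a difference of -1.46 (SE 0.35, limma adjusted p = 0.0684). Both groups held libraries near 35 and libraries above 500, and the groups differed in their medians and not in their ranges. Ccdc171 (0.46, adjusted p = 0.0763), Trmt10b (-0.28, 0.117), Mpdz (-0.26, 0.167), AI464131 (-0.25, 0.172) and Ube2u (0.38, 0.172) followed. Extl1, an exostosin-like glycosyltransferase gene 72.2 Mb after the span, had values of 0.324, 2.12 and 12.7 in low and 0.950, 8.32 and 14.7 in high Mup12 libraries (-1.14, adjusted p = 0.202). Tmem245, 3.01 Mb before the span, differed by 0.02 (adjusted p = 0.990).

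With the groups taken from the runs, 19 of 11414 genes were called (0.166%), of which 16 lay on chromosome 4 (2.26%). They were 8 genes lower and 8 genes higher on the run of low Mup12 relative to Mup7, and 4 of the 6 genes called by Mup12 level were among them, namely Alad, Hdhd3, Enho and Dnaic1. Alad (-0.69, SE 0.07, limma adjusted p = 1.52e-10) and Hdhd3 (-0.79, SE 0.09, adjusted p = 1.71e-08) again had the smallest p. Cyp4a32 (-1.69, adjusted p = 0.00317) and Extl1 (-1.35, adjusted p = 0.0147) passed among the lower genes. Among the higher genes were Ccdc171 (0.64, adjusted p = 3.15e-05) and Ube2u (0.42, adjusted p = 0.0377). The chemokine gene Ccl27a (0.69, adjusted p = 0.000861) and the subunit gene of the metabotropic GABA receptor Gabbr2 (0.54, adjusted p = 0.0161), both higher too, were named after their values were seen. By distance, 2 genes were called within 10 Mb, 8 from 10 to 30 Mb, 5 from 30 to 60 Mb and 1 beyond 60 Mb.

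On the other chromosomes Cib3 and Gm15501 were called. Cib3, a calcium and integrin binding protein gene on chromosome 8, was the only called gene with higher values in low Mup12 libraries. Its values were 1.06, 4.04 and 14.5 in low and 0.459, 1.49 and 7.28 in high Mup12 libraries, and the groups overlapped over most of their ranges. Cib3 was 1.98-fold higher in low Mup12 libraries (0.99, SE 0.19, limma adjusted p = 0.00344), and it kept a difference of 0.85 (adjusted p = 0.0377) between the runs. Its transcripts shared no stretch of 31 bases with any other annotated gene.

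Gm15501, annotated as a processed pseudogene on chromosome 7, had values of 0, 0.164 and 3.76 in low and 0, 2.08 and 3.90 in high Mup12 libraries. Most low libraries were near 0 and most high libraries above 1, and each group held a few of the other kind. The difference was -1.17 (SE 0.27, limma adjusted p = 0.0408), with a median of 4.5 reads per library. Without library 24 its adjusted p was 0.0587, with edgeR 0.182 and with DESeq2 0.300. Its difference also depended on the pseudocount and was -1.91 with pseudocount 0.1 and -1.59 with edgeR.

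**Figure D4:**
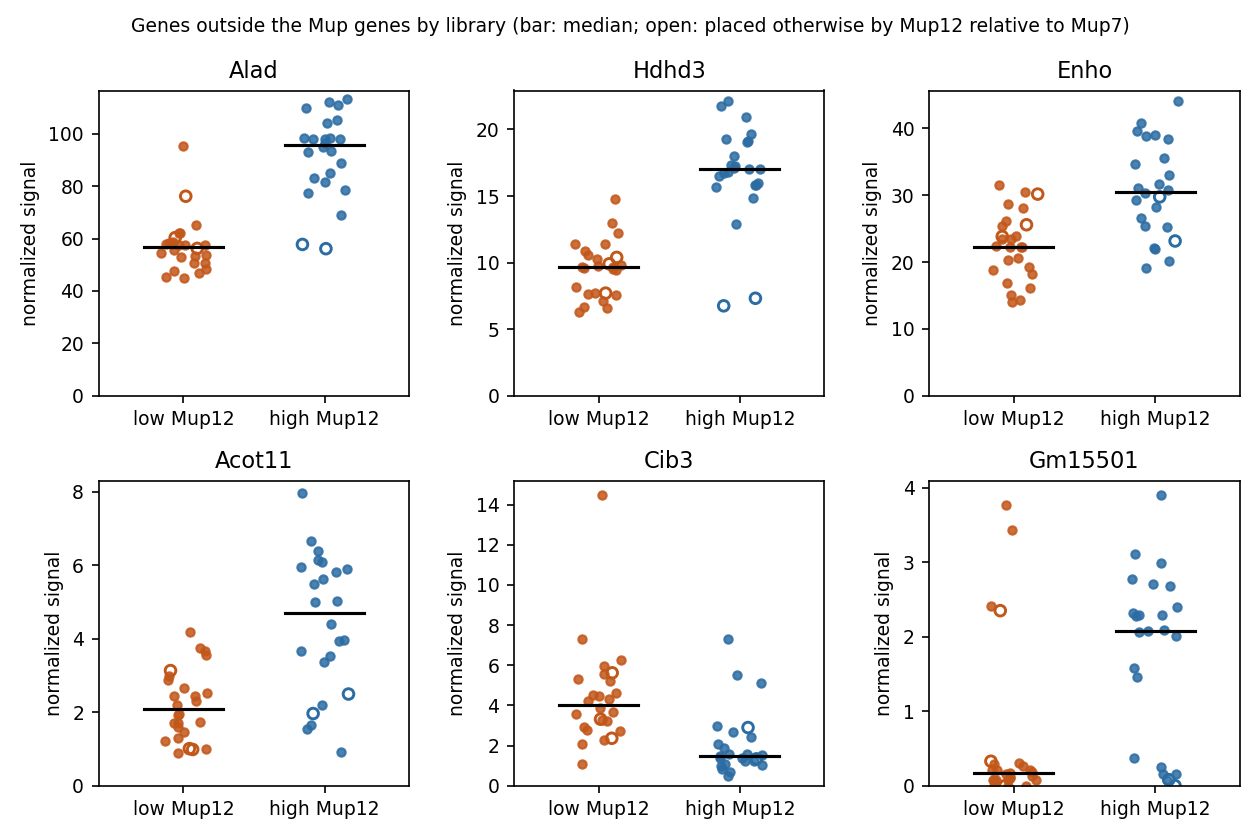
Normalized signal of Alad, Hdhd3, Enho, Acot11, Cib3 and Gm15501 in each library, for 26 low and 24 high Mup12 libraries, with bars at the medians and open circles for the 5 libraries that Mup12 relative to Mup7 places in the other group. The open circles of the high group lie among the low libraries for Alad and Hdhd3.

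Below the threshold on the other chromosomes, the genes with the smallest p and higher values in low Mup12 libraries were Mfge8 (0.27, adjusted p = 0.0684), Enpp6 (0.74, 0.0684), Rtn4 (0.23, 0.0686), Pamr1 (0.25, 0.114) and 5330417C22Rik (0.48, 0.117). Those with lower values were Acsm2 (-0.40, 0.239), Derl3 (-0.79, 0.239), Naa25 (-0.14, 0.275), Col13a1 (-0.34, 0.275) and Shc1 (-0.10, 0.275). On chromosome 6 they were Tigar (-0.23, 0.272), Elmod3 (-0.14, 0.453), Usp5 (-0.10, 0.483), Rerg (0.26, 0.297), Sgce (0.26, 0.297) and Mest (0.44, 0.302). None of these passed by limma between the groups of all 50 libraries without a covariate. Of these genes edgeR called none, while DESeq2 called Mfge8 and Rtn4. Without the 4 libraries nearest the midpoint limma called 5330417C22Rik, Col13a1, Enpp6, Pamr1 and Rtn4. It called Col13a1 and Enpp6 in libraries 1 to 30, and Enpp6 and Mfge8 without the second library of doubled animal numbers. With animal number as covariate it called Mfge8. With library set as covariate limma called Enpp6 and 5330417C22Rik, and with log2 Mup12 as a number it called 10 of these 16 genes, all but Tigar, Elmod3, Usp5, Rerg, Naa25 and Shc1.

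The library numbers fall in 2 sets, 1 to 30 and 31 to 59. The first set held 18 low and 10 high Mup12 libraries and the second 8 low and 14 high ones (2-sided Fisher's exact test p = 0.0863, adjusted over 4 library properties 0.345). Within libraries 1 to 30 the differences were -0.79 for Alad and -0.86 for Hdhd3 (limma adjusted p = 3.57e-08 and 1.52e-05), and 10 genes were called in all, 6 on chromosome 4, including Acot11 (-1.01) but not Enho (-0.43), Gm12909 (-0.76) or Dnaic1 (-0.53). Within libraries 31 to 59, which include libraries 32 and 33, 0 genes were called by limma, with 278 at an unadjusted p under 0.05. There the differences were -0.56 for Alad (adjusted p = 0.236), -0.72 for Hdhd3 (0.339), -0.59 for Acot11, -0.60 for Enho, -0.54 for Gm12909, -0.94 for Dnaic1, 0.63 for Cib3 and -0.99 for Gm15501, each with the sign of the whole series. A test of the interaction between Mup12 group and library set passed for 0 of 11414 genes (0%) by limma, where 291 had an unadjusted p under 0.05.

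Other library properties were compared by permutation tests. The counted reads averaged 15516253 ± 3545795 (SD, n = 26) in low and 15433857 ± 4290993 (SD, n = 24) in high Mup12 libraries (2-sided permutation p = 0.951). The share of values in the 10 highest genes was 33.99% ± 1.32 and 34.2% ± 1.52 (p = 0.575), and the mean animal number was 209 ± 47.05 and 209.7 ± 55.7 (p = 0.951). No adjusted p of these was below 0.345.

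Eno1b and Gm13394 each had separate low and high values across the libraries, and these did not follow the Mup12 groups. Eno1b, divided at the midpoint of its own log2 values, was high (19.4 to 42.8) in 9 of 26 low and 12 of 24 high Mup12 libraries, and at 0.405 or less in the others. Of its 1845 stretches of 31 bases, 1509 were shared with Eno1 on chromosome 4, although Eno1b itself is annotated on chromosome 18. Gm13394, annotated on chromosome 2, shared 939 of 970 with Gm12671 on chromosome 4. Eno1b had been chosen as a tag of distal chromosome 4 and Gm13394 as a tag of distal chromosome 6. Whether they tag these positions was not tested here. Gm13394, divided in the same way, was high (84.4 to 163) in 18 of 26 low and 14 of 24 high Mup12 libraries. Both genes thus occurred in high and low form in each Mup12 group, and neither passed the test (-0.88, adjusted p = 0.919 and 0.75, adjusted p = 0.948).

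Gene lists were described by their counts and medians, beside a median difference of -0.00 over all genes outside the Mup genes. Of those 11414 genes, 5978 were lower and 5436 higher in low Mup12 libraries. Counts by direction within a list were not tested. No member of any list was called by limma between the groups of all 50 libraries without a covariate. Without the 4 libraries nearest the midpoint limma called Rtn4 and Cyp4a32 of the lists. With log2 Mup12 as a number in place of the groups, limma called 72 of all 11414 genes, among them 4 of 17 female-biased genes, 4 of 7 early-life liver genes and 1 gene each of the male-biased, secretory pathway and fatty acid oxidation lists. DESeq2 between the groups called Rtn4, Cyp2a4, Cyp4a32 and H19 of the lists, and edgeR called 0 members. Of 25 tested male-biased liver genes, 22 had lower and 3 higher values in low Mup12 libraries, with a median difference of -0.18, and between the runs the median was 0.18. The smallest p of this list belonged to Cyp4a12b (-0.44, adjusted p = 0.789) and Cyp4a12a (-0.40, 0.804), male-typical fatty acid hydroxylases of chromosome 4. Of 17 female-biased genes, 13 were higher in low Mup12 libraries with a median of 0.12, led by Rtn4 and by Cyp2a4 (0.98, 0.719), a female-typical steroid hydroxylase, and the median between the runs was -0.03. The medians of both sex-biased lists thus had opposite signs under the 2 ways of dividing the libraries.

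Of 37 genes of the secretory pathway and unfolded protein response, 30 were lower in low Mup12 libraries with a median of -0.06, and -0.02 between the runs. Derl3, a component of endoplasmic reticulum-associated degradation, had values of 0.0712, 1.57 and 8.59 in low and 0.438, 3.32 and 8.14 in high Mup12 libraries, and the co-chaperone Dnajb11 differed by -0.21 (adjusted p = 0.453). All 7 tested early-life liver genes, which are expressed highly in fetal and young liver, were higher in low Mup12 libraries with a median of 0.41, and 0.08 between the runs. Mest (0.44) and the imprinted transcription factor gene Plagl1 (0.41, adjusted p = 0.477) had the smallest p among them. Of 12 cell cycle genes 10 were higher in low Mup12 libraries (median 0.11, and 0.02 between the runs), among them the proliferation marker Mki67 (0.32, 0.719) and the replication helicase gene Mcm6 (0.18, 0.733). None of these lists held a gene called by limma between the groups.

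Metabolic lists had medians nearer to that of all genes. The median was 0.01 for 22 genes of glucose production and glycolysis, with Gckr, the glucokinase regulator, at 0.19 (adjusted p = 0.467) and Ppargc1a at 0.29 (0.804). It was -0.00 for 30 genes of sterol and fatty acid synthesis, with Acacb at -0.24 (0.795) and Me1 at -0.11 (0.817). It was 0.01 for 26 genes of fatty acid oxidation and PPAR-alpha targets, where Cyp4a32 and Cyp4a31 (0.48, 0.483) had the smallest p and lie on chromosome 4. Of 25 xenobiotic cytochromes P450, 19 were lower in low Mup12 libraries (median -0.05, and 0.09 between the runs), with Cyp2a22 at 0.67 (0.733) and Cyp1a2 at -0.28 (0.752).

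The growth hormone and IGF axis had a median of -0.05 over 19 genes, with Onecut1 (-0.41, adjusted p = 0.704) and Zhx2 (-0.12, 0.795), a repressor of hepatic genes, at the smallest p. The 18 circadian clock genes had a median of 0.05, with Hlf at -0.10 (0.817) and Bhlhe40 at 0.23 (0.882), and the 25 acute-phase genes a median of 0.00, with Serpina3k at -0.14 (0.804) and the heme carrier Hpx at 0.12 (0.804). The 16 lipocalins and retinoid carriers outside the Mup genes had a median of 0.08, with the fatty acid binding proteins Fabp7 (0.26, 0.453) and Fabp4 (0.36, 0.525). Relatives of the Mup proteins in the lipocalin family were thus not called by limma between the groups.

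**Figure D5:**
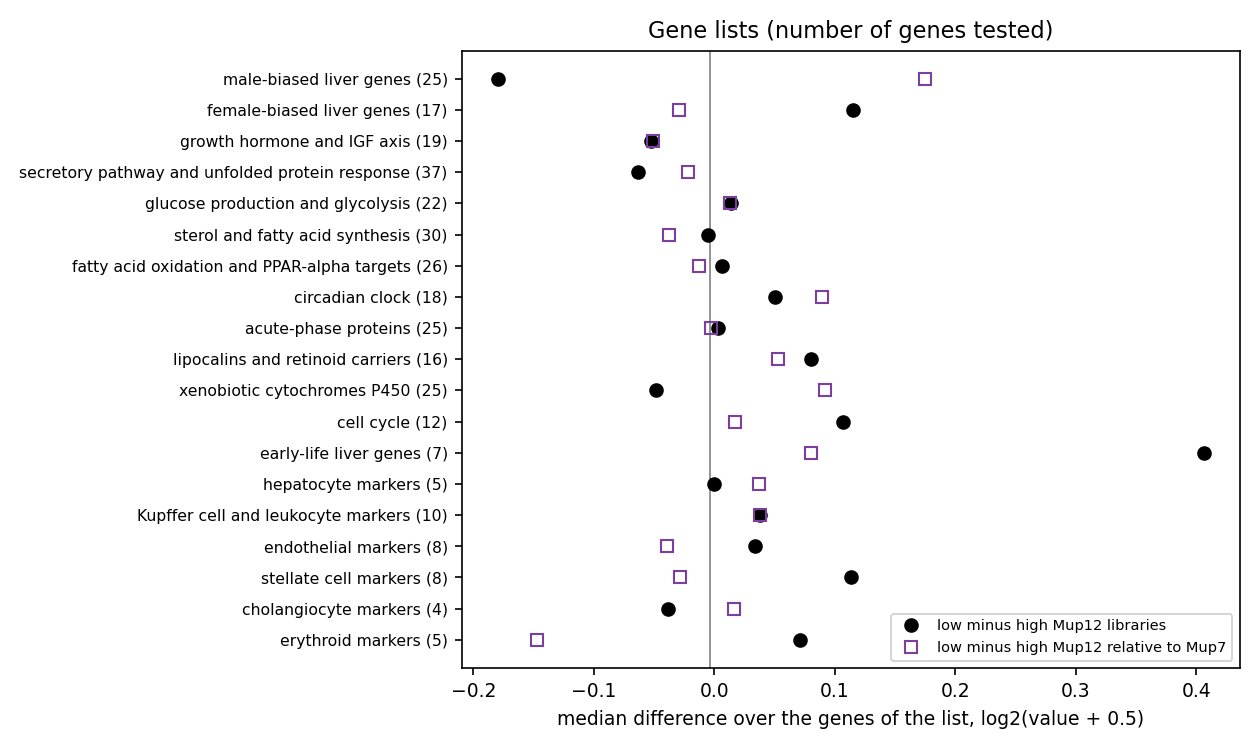
Median difference in log2(value + 0.5) over the tested genes of each list, for low minus high Mup12 libraries (filled circles) and between the runs of low and high Mup12 relative to Mup7 (open squares), with the grey line at the median of all genes outside the Mup genes. Male-biased genes lie at -0.18 and 0.18, and early-life liver genes at 0.41 and 0.08.

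Markers of the cell types of liver were at similar summed levels in the groups. The 5 hepatocyte markers, led by Alb, summed to 96775 ± 10271 (SD, n = 26) in low and 94837 ± 12659 (SD, n = 24) in high Mup12 libraries. Of the Kupffer cell and leukocyte markers 11 of 14 were in the table, led by Clec4f, and summed to 331 ± 38.6 and 326 ± 52.4. The 8 genes listed as endothelial markers, led by Dpp4, summed to 311 ± 27.6 and 306 ± 24.6. Dpp4 was not among the endothelial markers first planned, so this sum is uncertain as a measure of endothelial cells. The 8 stellate cell markers, led by Dcn, summed to 224 ± 44.8 and 200.1 ± 38.1, and all 8 had higher mean log2 values in low Mup12 libraries with a median difference of 0.11, and of -0.03 between the runs. The 4 of 5 cholangiocyte markers in the table, led by Spp1, summed to 30.9 ± 5.77 and 29.8 ± 4.71, and the 5 erythroid markers, led by Hbb-bs, to 189 ± 49.5 and 182 ± 43.7. No marker in the table was at 0 in every library, no marker passed the test, and the part of any cell type in the differences above was not tested.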

How the data were processed

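The series holds 50 liver libraries labelled as from male mice. Per the labels, the submitters' processing notes name FastQC, Trim Galore, HISAT2, HTSeq 0.11.1, edgeR and GRCm38.p5. The authors deposited a normalized signal, scaled counts whose columns sum to between 886171 and 1120647. The design had assumed CPM, and the same test on the log2 scale was kept. Dividing each library by the value of 1 read gave whole reads for 100% of values within 0.01 read, and edgeR and DESeq2 ran on these as alternatives. Positions came from GENCODE M21 and were found for 12177 of 12185 genes.

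Libraries were chosen by the measured Mup12 value. limma 3.58.1 (R 4.3.3, eBayes with trend, log2(value + 0.5), mean value of 1 or more, low minus high, 2-sided, Benjamini-Hochberg, threshold 0.05) compared the groups with no covariate, and was tested on simulated data. Permutation tests used 100000 resamples. Other versions were DESeq2 1.42.0, edgeR 4.0.16, matplotlib 3.10.9, pandas 2.3.3, Python 3.11.15, scipy 1.17.1, numpy 2.4.6. Alternatives covered pseudocount, filter, variance model, test, division of Mup12, covariates and libraries. Named genes were every Mup gene, the 4 nearest tested genes on each side, the 12 of chromosome 4, 3 of chromosome 6 and 6 of other chromosomes in each direction with the smallest p, Extl1, Tmem245, Eno1b, Gm13394 and the 2 with the smallest p of each list other than markers; Ccl27a and Gabbr2 were added after their values were seen. Members and lists were chosen with earlier results of these data known. Where labels do not name separate animals, p-values measure the spread between libraries. For some genes no single-gene value is given.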

Additional observations from a re-analysis of the deposited data

How the results depend on the processing

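Over 23 alternatives, 64 named genes outside the Mup genes kept direction and side of the threshold in 1341 comparisons, gained a call in 60, lost a call in 22 and changed sign in 18. Alad and Hdhd3 lost their calls with libraries 31 to 59 alone. The cause of the changes below was not tested, except that fewer libraries or genes entered some fits.

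Outside the Mup genes, 8 genes were called. The count was 3 with a mean value of 5 or more, 13 with DESeq2, 23 with groups at the widest gap, 15 without the 4 libraries nearest the midpoint, 72 with log2 Mup12 as a number, 13 with library set as covariate, 14 with library set and animal number, 0 in libraries 31 to 59, 19 with Mup12 relative to Mup7 and 18 without the 5 libraries, the last 2 chosen after seeing the data. On chromosome 4 the count of 6 became 3 with a mean of 5 or more, 15 at the widest gap, 16 with log2 Mup12 as a number, 0 in libraries 31 to 59, 16 with Mup12 relative to Mup7 and 16 without the 5 libraries. On chromosome 6 the count of 0 became 4 with log2 Mup12 as a number. On the other chromosomes the count of 2 became 1 with pseudocount 1, with a mean log2 of 1 or more, with edgeR and without library 24, 0 with a mean of 5 or more and in libraries 31 to 59, 5 with DESeq2, 8 at the widest gap, 7 without the 4 nearest libraries, 52 with log2 Mup12 as a number, 4 with library set, with animal number, without the second library of doubled animal numbers and in libraries 1 to 30, and 6 with both covariates. With the score of sex-dependent genes as covariate 9 genes were called.

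Signs changed for genes that passed under neither setting. In libraries 31 to 59 the difference was -0.00509 for Snx30, -0.0375 for Hsdl2, -0.12 for Tmem245 and -0.28 for Gm13394. For E130308A19Rik it was -0.0201 in libraries 1 to 30 and -0.00126 without the 4 nearest libraries. Per log2 decrease of Mup12 it was -0.00211 for E130308A19Rik and -0.00268 for Tmem245. The sign of these slopes was turned to that of low minus high, so that a negative slope means lower values at lower Mup12. With Mup12 relative to Mup7 it was 0.0472 for Slc31a1 (0.00603 without the 5 libraries), 0.0594 for Cyp4a12b, 0.17 for Cyp4a12a, -0.0291 for Cyp2a4, 0.00627 for Me1, 0.0193 for Hlf, 0.0122 for Serpina3k, -0.0484 for Cyp2a22 and 0.11 for Cyp1a2. Leaving out each library in turn was not run because both groups exceed 5 libraries. With animal number as replicate block, chosen after seeing the data, the same 8 genes were called and no call changed. The deviations from group means of the 2 libraries of a number had a correlation of 0.186 (libraries 8 and 10) and -0.0408 (libraries 22 and 55), and 7 and 23 other libraries correlated better with libraries 8 and 22. Depth limits genes such as Gm15501 and Dnaic1, with medians of 4.5 and 11.5 reads.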
